A study of Arabidopsis thaliana with 32 samples.

Results

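In wild-type Arabidopsis thaliana seedlings, 2567 m6A peaks were called at the same place with and without auxin. They were chosen by the positions of the called peaks: a peak of mock replicate 1 on chromosomes 1 to 5 counted as constant where each of the other 3 wild-type lists held a peak sharing with it 50% or more of the shorter of both. Those lists were mock replicate 2, NAA replicate 1 and NAA replicate 2. The constant peaks made up 43.8% of the 5865 peaks of mock replicate 1, and the other 3298 peaks of that list serve below as the comparison. Because the 4 lists chose the peaks, the peaks' enrichment, width and q-values in those lists are given as a description only.

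The series examined how auxin signalling through the receptor-like kinase TMK4 bears on FIP37, a subunit of the m6A writer complex. The m6A lists came from immunoprecipitates of polyadenylated RNA from seedlings 15 days old, 2 per group with inputs. They covered wild type given mock or 50 µM NAA, a synthetic auxin, for 3 h, tmk4-1 given the same NAA treatment, and, with no treatment on the labels, 35S:FIP37 and 35S:FIP373A. RNA-seq covered wild type and fip37 LEC1:FIP37, each given mock or NAA for 3 h, with 3 libraries per group and 12 in all. The names show what limits these lines as models. LEC1 is a promoter of embryos, so the line fip37 LEC1:FIP37 carries a FIP37 gene meant for the embryo, and 35S is a viral promoter active in most tissues. All lists and libraries were made from whole seedlings, so fewer cells of a type and less RNA per cell cannot be told apart in them.

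N6-methyladenosine is an internal mark of messenger RNA. In plants a complex of the methyltransferases MTA and MTB with FIP37, VIR and HAKAI writes it, YTH-domain proteins of the ECT family read it, and demethylases of the ALKBH family can remove it. Across plants and animals the mark is known to lie mostly near the stop codon and in the last part of the transcript, and it bears on the stability, processing and translation of the RNA.

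The immunoprecipitates of the 4 wild-type lists held 22553583 to 24681870 tags, per the file headers, and 26.5% to 29.8% of these remained once duplicates had been dropped. Leaf markers were high in all 12 RNA-seq libraries (RBCS1A at 6962 RPKM or more), and the embryo markers LEC1, FUS3 and OLEO1 were at or under 0.471 RPKM. The 3 root markers moved with the groups. PYK10 was at 403 to 480 RPKM in wild-type mock, 229 to 317 in wild-type NAA and 838 to 1231 in fip37 LEC1:FIP37 mock, COBL9 at 1.99 to 2.52, 0.308 to 0.800 and 0.152 to 1.39, and IRT1 at 9.55 to 13.9, 0 to 2.32 and 0.0347 to 0.0559. All 3 were called lower with NAA in wild type, and 1 was called higher and 2 lower in fip37 LEC1:FIP37 under mock. The summed level of the 3 root markers was 416 to 492, 230 to 320 and 838 to 1233 RPKM in the same groups, and that of the leaf markers RBCS1A, RCA and LHCB1.3 was 23260 to 24860, 18340 to 19870 and 27780 to 35050. The part of tissue makeup in the RNA changes below was not tested. The libraries with the label fip37 LEC1:FIP37 had 57.9 to 120 RPKM of FIP37 itself, above the 11.3 to 23.3 RPKM of wild type, so each direction against them is that of their label. The library of NAA replicate 3 in wild type stood apart. In it 179 of the 2351 genes with a constant peak that were tested for change differed by 2-fold or more from the mean of its group's other libraries, against 25 in each of those. Counts of genes called for NAA and the values of several, not all, named genes are therefore given with and without it.

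Of the peaks of mock replicate 1, 898 had no match in the other lists, 1010 were matched in 1 list and 1390 in 2. Replicates of one treatment already differed: 4171 of the 5865 peaks (71.1%) were found again in mock replicate 2. Of these 4171 peaks, 61.5% were in both NAA lists, 27.2% in 1 NAA list and 11.3% in neither. The lists differed in length on chromosomes 1 to 5, with 6058 peaks in mock replicate 2, 4467 in NAA replicate 1 and 5366 in NAA replicate 2. NAA replicate 1 held a match for 58.7% of the 5865 peaks and NAA replicate 2 for 66.1%. The part of list length in these shares was not tested, so a missing match is not a measure of loss with NAA. The constant share was alike along the genome, from 43.4% of the peaks on chromosome 1 to 44.1% on chromosome 4.

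The constant peaks were broad rather than strongly enriched. The fold enrichment is the authors' value for each peak over the local background of its input, and its median over the constant peaks was 1.91 in mock replicate 1, 1.91 in mock replicate 2, 1.85 in NAA replicate 1 and 1.89 in NAA replicate 2. In mock replicate 1 the peaks that were not constant had the higher median fold, 2.04, but fewer tags at the summit (a median pileup of 89 against 119) and a smaller width (240 against 285 bases). Pileup rose with recurrence, from a median of 79 tags in peaks matched in no other list to 87, 98 and 119 in those matched in 1, 2 and 3. Median -log10 q was 7.63 for constant peaks and 6.96 for the others.

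For each constant peak the lowest of its 4 fold values ranged from 1.23 to 4.02, with a median of 1.63. Width averaged over the 4 lists ranged from 204 to 797 bases, with a median of 291.5. The summits coincided closely: in 63.7% of the peaks all 4 lay within 50 bases, in 78.3% within 100 and in 90.7% within 200. The peaks with the highest lowest fold also had summits closest together between lists. The median summit spread over the 4 lists was 17 bases in the top quartile of lowest fold and 51 in the bottom quartile.

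The most enriched constant peak lay at chr3:647299-647586 (TAIR10) in AT3G02900, with folds of 4.25 and 4.02 in the mock replicates and 4.22 and 4.18 in the NAA replicates, and its 4 summits lay within 4 bases. The peak of ATG3, an enzyme of autophagy, at chr5:24733830-24734212 had folds of 3.87, 3.90, 4.04 and 4.18 in mock replicates 1 and 2 and NAA replicates 1 and 2. That of the endosomal Rab GTPase ARA7 at chr4:10687264-10687540 had 4.24, 4.75, 3.87 and 4.21 in the same order. The mock and NAA values overlapped in AT3G02900, whereas both NAA values were above both mock values in ATG3 and below both in ARA7. Fold values from different lists carry no test of change.

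Next came ISPF, an enzyme of plastid isoprenoid synthesis (chr1:23738829-23739049), PBB2, a proteasome subunit (chr5:16248318-16248719), and ARI8, of the ARIADNE family of ubiquitin ligases (chr1:24301039-24301313). Their lowest folds were 3.85, 3.79 and 3.61. EMB2761, AT3G10970 and OVA1, an aminoacyl-tRNA synthetase, followed with lowest folds of 3.604, 3.58 and 3.49. The remaining peak of the top 10, at chr3:20594982-20595405, had its summit in both AT3G55520 and SDIR1, so no gene was assigned. Where strand was known, these summits lay close to the 3′ end of the gene, 130 bases from it in ATG3, 133 in PBB2, 200 in AT3G02900, 285 in ISPF and 434 in AT3G10970.

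**Figure D1:**
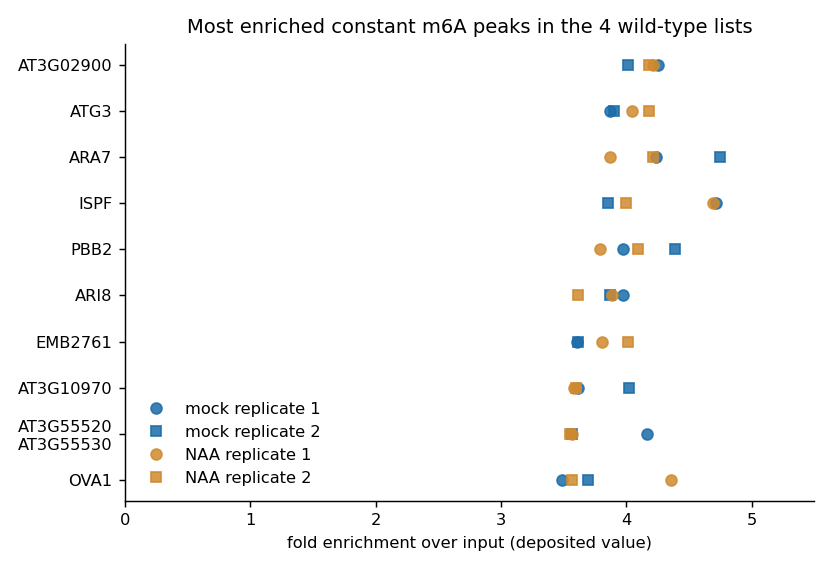
Fold enrichment over input, on the x axis, of the 10 constant peaks with the highest lowest fold, one row per peak and one point per wild-type list (circles replicate 1, squares replicate 2, blue mock, orange NAA). All points lie between 3.49 and 4.75, and the NAA points are both above the mock points in ATG3 and EMB2761, both below in ARA7 and AT3G10970, and overlap them in the rest.

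The widest constant peaks were those at chr3:20916269-20917268 (mean width 797 bases, summit in both AT3G56408 and AT3G56410), in AT5G05480 (758 bases) and in IAR4 (751 bases), a subunit gene of pyruvate dehydrogenase first found in auxin conjugate resistance. Their summits were spread over 664, 479 and 340 bases between lists. At the edge of the rule, the 5 constant peaks nearest the limit shared 50.6% to 54.2% of the shorter peak in the list with the least overlap. They lay in AT1G31440, AT5G10150, AT5G16730, MEE22 and AT4G32240. The 5 nearest peaks outside shared 46.9% to 48.8% and lay in TRN1, AT1G67530, AT2G20280, SVP and CSP41A. The folds of CSP41A, 2.37, 2.62 and 1.94 in the 3 lists that held it, were within the range of the constant peaks.

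Nearly every constant peak lay in a protein-coding gene. The summit fell inside 1 gene of the RefSeq table of TAIR10.1 for 2445 peaks (95.2%), inside 2 or more overlapping genes for 118 and in none for 4. The 2445 peaks belonged to 2357 genes, of which 2350 were protein coding, 5 pseudogenes, 1 a transcribed pseudogene and 1 a noncoding RNA. A single constant peak was the rule, in 2276 genes, while 76 genes held 2 and 5 held 3 or more. FIP1[V], a polyadenylation factor, held 4 with folds of 1.55 to 2.36 in mock replicate 1, and AT1G65010 held 4 with 1.62 to 3.12. RPP4, a disease resistance receptor, held 3 of 1.29 to 1.53, and it belongs to a cluster of near copies among which tags could be split. AT1G20970 and AT5G16730 held 3 each. A further 283 of the 2357 genes also held a peak that was not constant.

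Constant peaks sat in the last part of their genes. The strand of the gene was known from the deposited 35S:FIP37, 35S:FIP373A and tmk4 lists for 896 constant summits, which are therefore genes with a peak in at least 1 of those lists. The median summit lay at 83.8% of the gene span from the 5′ end and 420.5 bases before the 3′ end, with quartiles of 318 and 581 bases. The stretch from 80% to 90% alone held 45.0% of the summits, that from 70% to 80% held 17.5% and the last 10% held 20.2%. Within 500 bases of the 3′ end lay 65.6% of them (95% Wilson interval 62.5% to 68.7%), and 0 of 896 lay within 200 bases of the 5′ end, which allows a share of up to 0.335% (3 summits of the total, counting error only). Of the 734 other summits with known strand 0 lay there as well, which allows up to 0.409%.

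Peaks that were not constant were spread more widely along genes. For 734 of them with known strand the median was 78.5% of the span and 545 bases from the 3′ end, and 45.9% (42.3% to 49.5%) lay within 500 bases of that end, an interval below that of the constant peaks. The first 20% of the span held 31 of 896 constant summits and 66 of 734 others. Over all genes, with no need of strand, the median distance from the summit to the nearer gene end was 423 bases for constant peaks and 490 for the others, and the median spans of their genes were 2833 and 2950 bases. Spans include introns and untranslated regions, and place within exons was not analysed here.

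**Figure D2:**
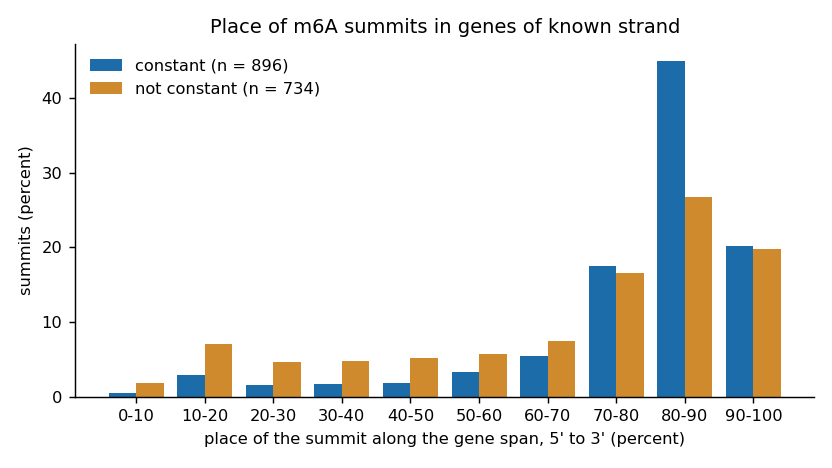
Place of m6A summits along the gene span, in 10 equal bins from the 5′ to the 3′ end (x axis), as a percentage of summits with known strand (y axis), for 896 constant peaks (blue) and 734 other peaks of mock replicate 1 (orange). The bin from 80% to 90% holds 45.0% of the constant and 26.8% of the other summits.

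The 3 lists that the rule did not use held the constant peaks more often than other peaks. Of the 2567 constant peaks, 465 (18.1%, 95% Wilson interval 16.7% to 19.7%) had a peak of 35S:FIP37 over 50% or more of the shorter of both, against 7.70% (6.84% to 8.66%) of the peaks that were not constant. In 35S:FIP373A the share was 13.4% (343 peaks, 12.1% to 14.7%) against 6.22%, and in tmk4-1 given NAA it was 11.3% (291 peaks, 10.2% to 12.6%) against 4.64%. Each share also rose with recurrence. In 35S:FIP37 it was 4.23% for peaks matched in no other wild-type list, then 7.43% and 10.1%, then 18.1%. The intervals cover counting error only, and each line has 1 deposited list, so nothing is tested between lines.

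Most constant peaks were in none of these lists: 1860 (72.5%) were absent from all 3, and 79 (3.08%) were in all 3. Those lists were of another format, with peaks a median of 100 bases long, and the sources used here do not give their caller. Seen from the other side, 11.4% of the 4762 peaks of 35S:FIP37, 9.22% of the 4294 of 35S:FIP373A and 17.7% of the 1835 of tmk4 on chromosomes 1 to 5 lay on a constant peak. Of the 35S:FIP37 peaks on a constant peak, 93.2% were centred in the last 30% of the gene, against 48.8% of all peaks of that list. For 35S:FIP373A these shares were 89.4% and 42.6%, and for tmk4 84.0% and 50.8%. Peaks picked for lying on a constant peak share its place, so these shares are a description only.

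**Figure D3:**
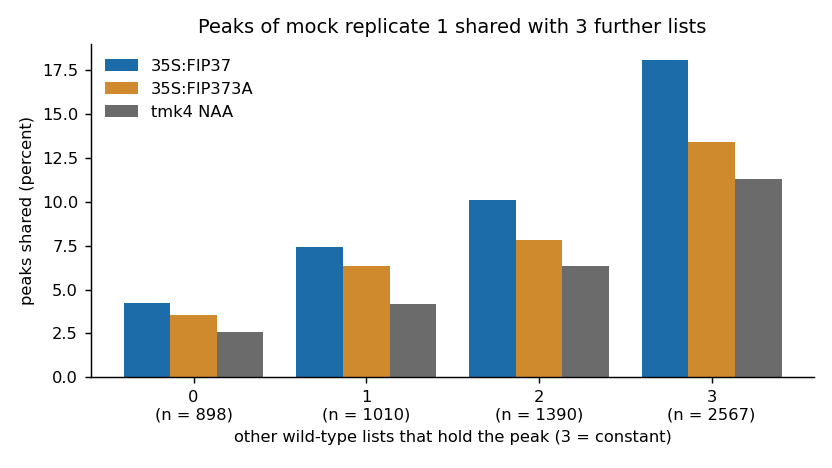
Percentage of mock replicate 1 peaks (y axis) overlapped in the lists of 35S:FIP37, 35S:FIP373A and tmk4-1 given NAA, by the number of other wild-type lists that hold the peak (x axis; 3 are the constant peaks). The share rises from 4.23% to 18.1% in 35S:FIP37 and from 2.56% to 11.3% in tmk4.

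Transcript level moved with these shares. Constant peaks found in 35S:FIP37 lay in genes with a median of 62.8 RPKM in wild-type mock, and those not found there in genes with 18.7 RPKM. For 35S:FIP373A the medians were 69.8 and 19.7 RPKM, and for tmk4 45.6 and 20.9. By quartile of lowest fold, constant peaks of the bottom quartile were found most often in 35S:FIP37, 25.4% against 15.1%, 15.6% and 16.4% in the quartiles above. The part of transcript level in the overlap was not tested.

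Genes with a constant peak were well expressed. RPKM values were at hand for 2351 of the 2357 genes, the 5 pseudogenes and the transcribed pseudogene being outside the table, and all 2351 passed the filter of a mean of 1 RPKM over the 12 libraries. Their median level per library was 20.6 to 23.4 RPKM in wild type and 15.9 to 20.8 RPKM in fip37 LEC1:FIP37. Genes with only other peaks of mock replicate 1 had medians of 12.2 to 14.6 RPKM in wild type, and tested genes without a peak had 6.11 to 7.08. A mean of at least 10 RPKM was reached by 82.4% of the genes with a constant peak and by 48.3% of the 18072 tested.

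By decile of wild-type mock RPKM, the share of tested genes that held a constant peak rose from 0.0553% in decile 1, the lowest, to 26.3% in decile 9 and was 24.9% in decile 10. Genes with only other peaks were most frequent in decile 7, at 21.6%, and made up 11.9% of decile 10. Along the same deciles the median fold of the constant peaks went from 2.26 in decile 2 (15 peaks) to 1.57 in decile 10, while the median pileup went from 69 to 166 tags. The part of transcript level in which peaks recurred was not tested.

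**Figure D4:**
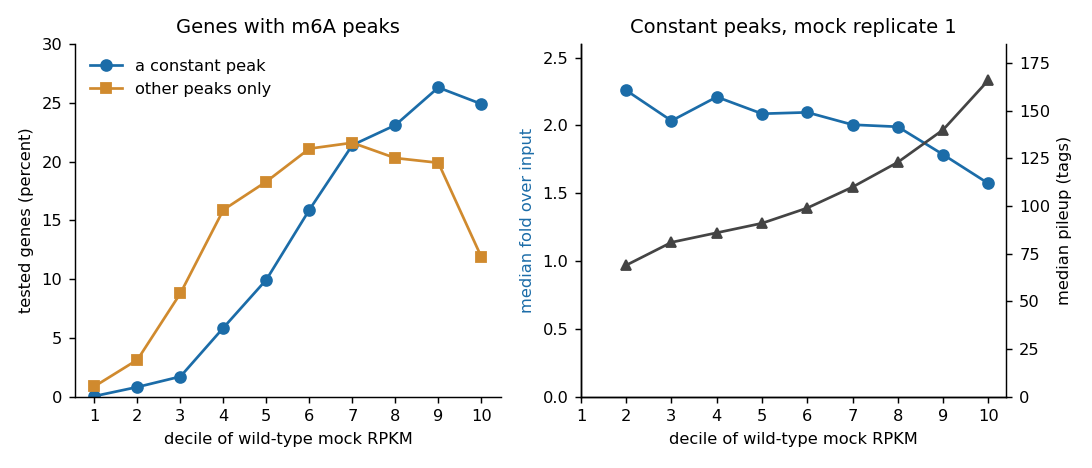
By decile of mean wild-type mock RPKM (x axis), the left panel gives the percentage of tested genes with a constant peak (blue) or other peaks only (orange), and the right panel the median fold over input (blue, left axis) and median pileup in tags (grey, right axis) of the constant peaks in mock replicate 1. Decile 1, with 1 constant peak, is left out on the right. The constant share reaches 26.3% in decile 9, while fold goes down to 1.57 and pileup up to 166.

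The most abundant transcripts with a constant peak were those of nuclear genes for chloroplast proteins. LHCB4.1, an antenna protein of photosystem II, stood at 1400, 1282 and 1242 RPKM in wild-type mock and 1159, 1054 and 1206 in NAA, and its folds were 1.25 and 1.24 in mock and 1.28 and 1.54 in NAA. FBA2, a plastid aldolase, the photosystem I subunits PSAD-2 and PSAN, and PDE334 came next, with 449 to 970 RPKM in wild-type mock. None of the 5 was called for NAA in wild type. PSAD-2, FBA2 and PSAN rose in fip37 LEC1:FIP37 under mock by 0.89 (SE 0.20, limma adjusted p = 0.00391), 0.86 (SE 0.24, 0.0127) and 0.74 (SE 0.14, 0.00139) on the log2 scale. The leaf markers RBCS1A, at 7800 to 8887 RPKM in wild-type mock and 13830 to 17560 in fip37 LEC1:FIP37 mock, and RCA, at 961 to 1470 and 2498 to 3454, were higher there too, while LHCB1.3 was at 13760 to 14640 and 11460 to 14040. Of 21 light-harvesting and Rubisco genes 11 were called higher in that comparison (background 15.3%) and 0 lower (background 23.5%). The part of leaf RNA in these rises was not tested. LHCB4.1 was the only 1 of the 21 light-harvesting and Rubisco genes on the list to hold a constant peak.

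By function, translation factors had the highest share of genes with a constant peak. The lists by words were matched against gene symbols and synonyms, since the table carries no descriptions, and are to be read beside the 14.8% of 8085 tested genes with a symbol of their own that held a constant peak. Of 23 tested translation factors 12 held one, of 56 chaperones and heat shock factors 19, of 134 genes of the ubiquitin system 36, of 43 RNA-binding and splicing genes 10 and of 46 ribosomal protein genes 10. Words meant to leave out ribosomal proteins of organelles met the same symbols and synonyms only. Those 46 genes may thus include some of them and are not a count of the class. The shares were 14.5% of 152 protein kinases and 13.8% of 305 transcription factors. They were lower among 284 transporters and channels (18 genes) and 126 cytochromes P450 (3). Of 19 genes matched by the words for glycosyl hydrolases and transferases 0 held one, but those words miss genes named by symbol, such as UGT73B5 and XYL1 below, so the count is not one of the class. The translation factors had a median of 39.1 RPKM over all libraries, a level that lies in decile 9, where 26.3% of all tested genes held a constant peak. For ribosomal protein genes the median was 160 RPKM (decile 10, 24.9%), above their own share of 21.7%. RNA-binding and splicing genes had 19.3 RPKM (decile 8, 23.1%) and a share of 23.3%. The ubiquitin system had 16.9 RPKM (decile 7, 21.4%) and chaperones 13.3 (decile 6, 15.9%), with shares of 26.9% and 33.9%. The level of the chaperones is at the border of decile 7, which starts at 13.34 RPKM. The medians are over all 12 libraries and the deciles are of wild-type mock alone, so levels match only roughly. The part of level was not tested.

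The 12 translation factors spanned the initiation machinery: subunits of eIF3 (TIF3H1, EIF3G1, EIF3C, EIF3E, EIF3B-2, TIF3B1), the scaffolds EIF4G, eIFiso4G1 and eIFiso4G2, EIF4B2, EIF2 GAMMA and the exon junction helicase EIF4A-III. The peak of EIF3B-2 had folds of 2.75 and 2.97 in mock and 1.89 and 2.43 in NAA. The peak of EIF3G1 had 1.26, 1.27, 1.29 and 1.36 in the same lists. Where strand was known the summits lay at 84.2% to 89.9% of the gene in 6 genes (TIF3H1, EIF4A-III, EIF3C, EIF3E, TIF3B1 and eIFiso4G1) and at 45.6% in EIF4B2. None of the 12 was called for NAA in wild type, and EIF4B2, EIF3G1 and eIFiso4G1 fell in fip37 LEC1:FIP37 under mock, by 0.63, 0.60 and 0.61 on the log2 scale (limma adjusted p = 0.00208, 0.00114 and 0.000452). Of the 11 translation factors without a constant peak 3 also fell (EIF3K, EIF2 BETA and LSP1) and EIF3G2 rose, and 23.5% of all tested genes were called lower. The 11 without a constant peak, such as EIF4A1 at 212 RPKM, had a median of 32.2 RPKM in wild-type mock against 45.7 for the 12.

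Some transcripts of the m6A machinery carried constant peaks, in numbers to be read beside the 13.0% of all tested genes that did. Of 8 writer genes on the list, all tested, 2 did. MTA, the catalytic methyltransferase, had a peak at chr4:6620186-6620426 with folds of 2.69 and 2.26 in mock and 2.27 and 2.32 in NAA. Its level was 11.9, 14.6 and 13.6 RPKM in mock and 13.1, 11.5 and 10.5 in NAA, so the groups overlapped (log2 fold change -0.18, SE 0.15, limma adjusted p = 0.497). AT5G53440, on the same list, had folds of 1.61, 1.65, 2.07 and 1.89 and its summit at 38.1% of the gene.

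Of 12 reader genes 2 (16.7%) held a constant peak, ECT3 (folds 1.72, 2.01, 2.02 and 1.91, summit at 83.9% of the gene) and ECT11 (1.99, 2.07, 2.35 and 2.13). Neither was called for NAA or between genotypes. Of the 3 erasers tested, AT4G02940 held one, with folds of 1.63 and 1.90 in mock and 1.505 and 1.495 in NAA. Its transcript rose with NAA in wild type, from 18.0, 15.5 and 19.8 RPKM to 29.7, 30.03 and 71.8 (log2 fold change 1.14, SE 0.26, limma adjusted p = 0.0216). The groups did not overlap, and NAA replicate 3 was the highest. Without that replicate the change was 0.72 (adjusted p = 0.00177), and the call was lost without any 1 of the mock replicates (adjusted p = 0.0676, 0.0881 and 0.062).

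Within the 4 auxin lists, transport genes made up 4 of the 6 genes with a constant peak. Of the 13 tested auxin transport genes these 4 (30.8%, beside 13.0% of all tested genes) were the efflux carriers PIN3 and PIN7 and the ABC transporters ABCB1 and ABCB19. The 13 had a median of 19.97 RPKM over all libraries. That level lies in decile 8 of wild-type mock RPKM, where 23.1% of all tested genes held a constant peak. With so few genes the count is not read as a trait of the class. PIN7 had folds of 2.69 and 2.09 in mock and 1.92 and 2.12 in NAA, and PIN3 had 1.48, 1.42, 1.76 and 1.40. The peaks of PIN3 and PIN7 lay at 91.4% and 87.0% of the gene and were also in both 35S lists. None of the 4 was called for NAA in wild type with all libraries, and ABCB19 was called lower without NAA replicate 3 (log2 fold change -0.66, limma adjusted p = 0.00908; -0.46 and 0.131 with it).

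PIN3 was at 122, 120 and 149 RPKM in wild-type mock and 76.9, 62.1 and 83.4 in fip37 LEC1:FIP37 mock, and PIN7 at 65.6, 69.2 and 82.0 against 32.2, 33.6 and 36.9. The groups did not overlap in either gene, and both fell (log2 fold changes -0.81 and -1.05, SE 0.15 each, limma adjusted p = 0.00118 and 0.000278). ABCB1 rose in the same comparison by 0.51 (SE 0.10, adjusted p = 0.00184).

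Of the 13 tested auxin biosynthesis genes none held a constant peak, beside 13.0% of all tested genes, and none held another peak of mock replicate 1. With so few genes the count is not read as an absence from the class. Of 24 Aux/IAA repressor genes only IAA7 held one, with folds of 1.43, 1.38, 1.29 and 1.31, and of 25 genes of perception and response only ARF1 did, with 3.04, 2.37, 2.85 and 2.69. IAA7 was at 163, 175 and 178.5 RPKM in wild-type mock, 262, 248 and 220 in NAA, and 71.1, 59.2 and 68.6 in fip37 LEC1:FIP37 mock. It rose with NAA in wild type by 0.50 (SE 0.12, limma adjusted p = 0.029), a call lost without any 1 of the mock replicates or of NAA replicates 1 and 2 (adjusted p = 0.0866 to 0.11). It fell in fip37 LEC1:FIP37 by 1.37 (SE 0.12, adjusted p = 1.11e-05). ARF1, at 22.4 to 24.7 RPKM in mock and 18.9 to 25.3 in NAA, was not called in either comparison.

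Of 18 clock genes PRR7, ELF3 and ELF4 (16.7%, beside 13.0% of all tested genes) held constant peaks, with lowest folds of 1.51, 1.38 and 1.43. ELF3 fell in fip37 LEC1:FIP37 under mock by 0.67 (SE 0.16, limma adjusted p = 0.00674), and none of the 3 was called for NAA in wild type, where PRR7 was called higher without NAA replicate 3 (0.74, adjusted p = 0.0444; 0.36 and 0.53 with it). None of the 7 tested shoot meristem genes held one. Of 9 heat shock genes HSP17.6II, HSP17.6A and HSP90.1 did. HSP17.6II was at 3.81, 5.003 and 3.88 RPKM in mock and at 1.47, 1.63 and 57.1 in NAA, so NAA replicate 3 alone was high. Its folds were 3.45 and 3.23 in mock and 2.46 and 1.35 in NAA. With all libraries it was not called (log2 fold change 0.47, SE 0.91, adjusted p = 0.804), and without NAA replicate 3 it was called lower (-1.03, adjusted p = 0.0307). HSP17.6A was at 2.88, 2.62 and 79.0 RPKM in NAA. It was not called with all libraries (0.10, limma adjusted p = 0.961) and was called lower without NAA replicate 3 (-1.375, adjusted p = 0.0235).

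The number of genes with a constant peak called for NAA in wild type depended on NAA replicate 3. The test was limma on log2(RPKM + 1), which understates the change of low genes, and a gene was called at an adjusted p under 0.05 over all tested genes. Of 2351 genes 139 (5.91%) were called, against a background of 8.35% of all 18072 tested. They were 52 higher (background 3.35%) and 87 lower (background 5.0%). Changes of at least 2-fold were called in 20 genes, 0.851% against 2.37% of all tested. The median log2 fold change was -0.04 in genes with a constant peak and -0.06 over all.

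In the quintile with the highest level, 64 of 912 genes with a constant peak (7.02%) and 396 of all 3615 tested were called. Without NAA replicate 3, 502 genes with a constant peak were called, 259 higher and 243 lower, which is 21.4% against a background of 22.8%. Without mock replicate 1, 2 or 3 there were 41, 46 and 32 (1.74%, 1.96% and 1.36%, against 3.6%, 3.5% and 2.64% of all tested), and without NAA replicate 1 or 2 there were 75 and 43 (3.19% and 1.83%, against 5.56% and 3.76%). With quantile normalization 241 were called, 10.3% against 10.3%. The split depended on scaling, with 98 higher and 58 lower under median-ratio scaling.

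Among the 8 largest rises were UGT73B5 and UGT73B2. UGT73B5, a glucosyltransferase of stress responses, was at 15.4, 15.6 and 16.6 RPKM in mock and 41.9, 40.3 and 131 in NAA, without overlap (log2 fold change 1.87, SE 0.34, limma adjusted p = 0.00657; 1.32 without NAA replicate 3). Its peak had folds of 2.66 and 2.49 in mock and 1.36 and 1.69 in NAA. UGT73B2, a close homologue, went from 21.6, 22.8 and 28.5 to 57.4, 55.8 and 197 RPKM (1.79, SE 0.37, adjusted p = 0.0135), and lost the call without mock replicate 1 or 2 (0.0557 and 0.0536). Without NAA replicate 3 its change was 1.197. In both genes every NAA library was above every mock library, and NAA replicate 3 was the highest.

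AT4G13180 went from 23.5, 27.9 and 26.8 to 80.2, 85.5 and 182 RPKM (2.01, SE 0.25, limma adjusted p = 0.000574), and 1.63 without NAA replicate 3. NUDT4, a Nudix hydrolase, went from 18.7, 14.6 and 13.7 to 30.8, 35.2 and 39.4 RPKM (1.12, SE 0.17, adjusted p = 0.00278). Their groups did not overlap. AT1G56660, ASPGB1, an asparaginase, and AT1G30700 also rose, by 2.103, 1.66 and 1.52 (adjusted p = 0.035, 0.0338 and 0.0302). In ASPGB1 the change without NAA replicate 3 was 1.21. AT1G56660 was at 3.48, 4.21 and 6.82 RPKM in mock and 37.5, 32.9 and 10.1 in NAA, so here NAA replicate 3 was the lowest, and its change without that replicate was 2.67. It lost its call without any 1 of the mock replicates or of NAA replicates 1 and 2 (adjusted p = 0.0758 to 0.126), ASPGB1 without any 1 of the mock replicates or NAA replicate 1 (0.0562 to 0.111), and AT1G30700 without mock replicate 2 or 3 or NAA replicate 2 (0.0861 to 0.134).

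Among the 8 largest falls were XYL1 and DWF1. XYL1, an alpha-xylosidase that trims xyloglucan, was at 191, 192 and 248 RPKM in mock and 60.0, 42.8 and 113 in NAA, without overlap (log2 fold change -1.64, SE 0.28, limma adjusted p = 0.00432). Without NAA replicate 3 its change was -2.02. Its constant peak was found in all 3 further lists and had folds of 1.36 and 1.34 in mock and 1.59 and 1.54 in NAA. DWF1, an enzyme of brassinosteroid synthesis, went from 180, 179 and 209 to 69.7, 67.9 and 137 RPKM (-1.12, SE 0.22, adjusted p = 0.0108; 0.0593 without mock replicate 3). Its peak was likewise in all 3 further lists, with folds of 1.24 and 1.27 in mock and 1.304 and 1.34 in NAA. In these 2 genes the RNA was lower in all 3 NAA libraries while a peak was called in each list.

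CXE5, a carboxylesterase, went from 110, 107 and 112.5 to 46.6, 31.0 and 34.1 RPKM (-1.56, SE 0.21, limma adjusted p = 0.00103), again without overlap. PRXR1, a peroxidase, was at 533, 509 and 564 RPKM in mock and 307, 223.5 and 344 in NAA (-0.90, SE 0.17, adjusted p = 0.00941; 0.0512 without mock replicate 3), and its folds lay between 1.25 and 1.27 in all 4 lists. AT3G19850, the GATA17-LIKE gene AT4G16141, BBX17, a B-box protein, and AT5G16030 also fell, by 1.11, 0.99, 1.33 and 0.91. BBX17 and AT5G16030 lost their calls without any 1 of the mock replicates or of NAA replicates 1 and 2 (adjusted p = 0.0601 to 0.11).

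Within fip37 LEC1:FIP37, 3 genes with a constant peak were called for NAA, 0.128% of 2351 against a background of 0.437%. All 3 were higher (background 0.376%) and 0 lower (background 0.0609%). They are named here after their values were seen. HB-8, a homeodomain factor of vascular development, was at 7.54, 7.54 and 7.16 RPKM in mock and 13.2, 17.1 and 15.5 in NAA (log2 fold change 0.95, SE 0.13, limma adjusted p = 0.00672). In wild type it was at 7.33, 8.30 and 8.79 and at 16.9, 15.4 and 13.4 (0.82, adjusted p = 0.00266). Neither pair of groups overlapped.

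NPY5, which acts with auxin in organ formation, was at 8.66, 7.66 and 8.24 RPKM in mock and 12.5, 15.3 and 15.2 in NAA (0.73, SE 0.13, limma adjusted p = 0.0333), and AT4G24275 at 9.41, 9.28 and 9.73 and at 14.6, 16.4 and 18.21 (0.73, SE 0.14, adjusted p = 0.0414). Both were also called higher in wild type (0.53 and 0.95). They lost the call in the mutant line without any 1 of its mock replicates (adjusted p = 0.072 to 0.199) and under several other omissions. Without wild-type NAA replicate 3, which enters the shared spread, 8 genes with a constant peak were called, 5 higher and 3 lower, which is 0.34% against 1.11% of all tested.

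**Figure D5:**
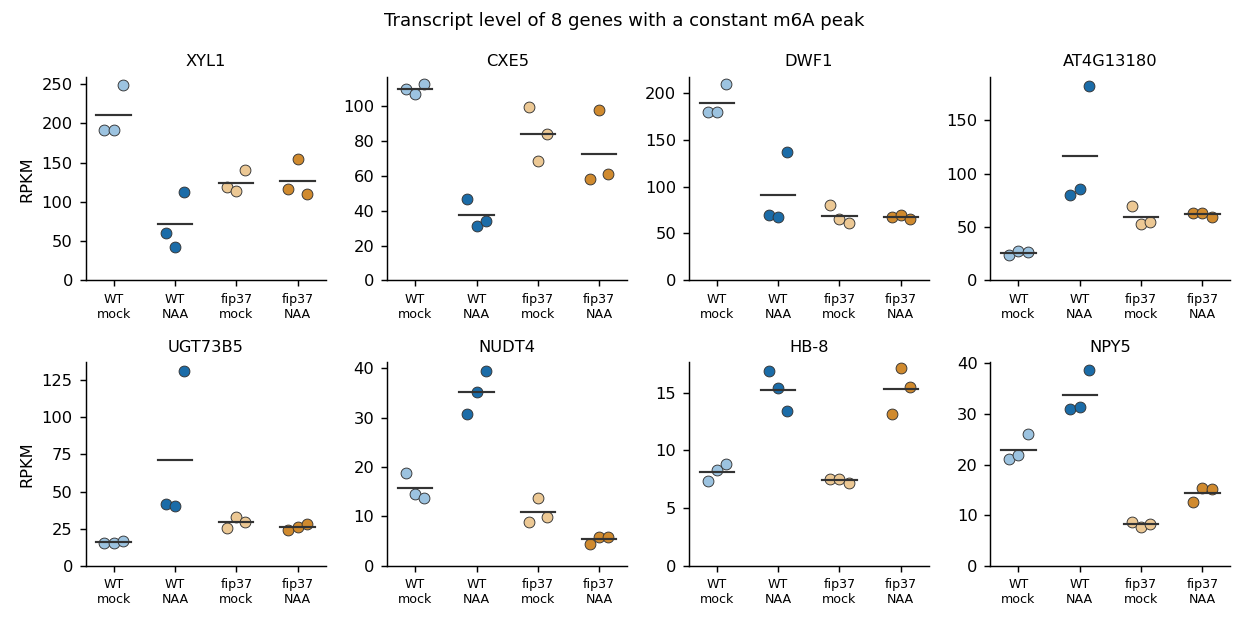
RPKM (y axis, from 0) of 8 genes with a constant peak in wild type (WT) and fip37 LEC1:FIP37 (fip37), given mock or NAA. Points are the 3 libraries of a group and bars their mean. XYL1, CXE5 and DWF1 are lower and the other 5 higher with NAA in wild type, and HB-8 and NPY5 are also higher with NAA in fip37.

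The difference of the NAA effects between genotypes was called for 24 genes with a constant peak, 1.02% against a background of 1.69%, with 5 higher in fip37 LEC1:FIP37 (background 0.636%) and 19 lower (background 1.06%). With the replicate number as a block the split was 1 higher and 22 lower. Without wild-type NAA replicate 3 it was called for 255, 10.8% against 12.3%. Leaving out any 1 of the other mock or NAA libraries gave 4 to 19, 0.17% to 0.808% against 0.376% to 1.27% of all tested. The smallest adjusted p among the named genes was that of NUDT4 (difference -1.99, SE 0.25, limma adjusted p = 0.004), which was at 8.89, 13.7 and 9.83 RPKM in fip37 LEC1:FIP37 mock and 4.46, 5.86 and 5.89 in NAA. NAA thus went with higher NUDT4 in every wild-type library and lower NUDT4 in every fip37 LEC1:FIP37 library, the second change not being called (-0.87, adjusted p = 0.0627). AT4G16141 went the other way (difference 1.31, SE 0.19, adjusted p = 0.00756), at 25.6, 25.2 and 24.7 RPKM in fip37 LEC1:FIP37 mock and 27.4, 36.3 and 32.1 in NAA.

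Between the genotypes under mock, genes with a constant peak were called as often as other genes but more often lower. Of 2351, 937 (39.9%) were called against a background of 38.8%. The 167 higher made up 7.10% (background 15.3%) and the 770 lower 32.8% (background 23.5%), and the median log2 fold change was -0.21 against -0.07 over all tested. The lean was not particular to constant peaks. Genes with only other peaks of mock replicate 1 had 10.2% higher, 26.9% lower and a median of -0.141. Tested genes without a peak had 17.7% higher, 21.2% lower and a median of -0.019. In the quintile with the highest level the lower share was 40.1% of genes with a constant peak and 35.1% of all, and in the next 31.5% and 28.9%. Level thus moved with the share, and its part was not tested. With median-ratio scaling the median of all genes was 0.00 and that of genes with a constant peak -0.13, with 273 higher and 701 lower. This comparison shares its wild-type mock libraries with that of NAA.

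The largest rise was that of LOX2, a lipoxygenase of jasmonate synthesis, from 14.9, 12.7 and 15.3 RPKM to 289, 242 and 499 (log2 fold change 4.43, SE 0.42, limma adjusted p = 1.56e-05). Its constant peak, with folds of 1.73, 1.62, 1.64 and 1.62 in the order of the 4 lists, was called in wild type. AIG2, a gene induced in defence, went from 25.9, 30.8 and 26.9 to 91.0, 153 and 138.5 RPKM (2.13, SE 0.25, adjusted p = 6.18e-05). YLS5, AT4G13495 and AT2G05510 also rose, by 1.74, 2.23 and 1.74. AT4G13495 shares its span with 3 other genes, and AT2G05510 lost its call without any 1 of the wild-type mock libraries or of fip37 LEC1:FIP37 mock replicates 1 and 2 (adjusted p = 0.0501 to 0.121).

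The largest fall was that of AT1G12080, from 284, 353 and 420 to 18.9, 13.4 and 5.38 RPKM (-4.84, SE 0.57, limma adjusted p = 6.21e-05). COR27, a cold-regulated gene tied to the clock, went from 20.4, 63.7 and 23.5 to 1.69, 3.79 and 0.929 RPKM (-3.47, SE 0.42, adjusted p = 8.03e-05). PAR1, a helix-loop-helix protein of shade responses, went from 32.6, 34.6 and 34.6 to 6.19, 5.78 and 4.52 RPKM (-2.44, SE 0.30, adjusted p = 8.77e-05). The groups of all 3 genes did not overlap. MCCA, an enzyme of leucine breakdown, and AT1G62770 fell by 2.29 and 2.46, also without overlap.

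Some of these levels are uncertain in what they count. The span of 709 of the 2351 genes shares bases with another gene, and the sources used here do not say whether the authors' counting used strand. Among them are UGT73B5, CXE5, BBX17, DWF1, AT5G16030, MCCA, PSAD-2, PSAN, MTA, ARF1, ELF3, ECT3 and OVA1. ATG3, PBB2, EMB2761, FIP1[V], AT1G65010, AT5G53440 and AT4G13495 are others. UGT73B2, HSP17.6II, HSP17.6A, LHCB4.1 and RPP4 belong to families with close copies.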

How the data were processed

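The m6A peaks of wild type came from 4 deposited lists, 1 for each replicate. Reads had been aligned to TAIR10 with STAR 2.5.3a, per the submitters' processing notes. The authors called peaks replicate by replicate over the matching input with MACS 2.2.6, extending tags to 200 bases, keeping 1 duplicate tag and requiring a q-value under 0.05, per the file headers. Each deposited peak has a fold enrichment over the local input background, a signal (the pileup of tags at its summit) and -log10 p- and q-values, all as the authors' caller gave them. The lists of 35S:FIP37, 35S:FIP373A and tmk4 were deposited as 1 list per genotype with p-values and an enrichment score, and the sources used here do not give their caller, settings or pooling. Of these lists, position, gene and strand were used. RNA-seq was deposited as RPKM per gene, from strand-specific single-end libraries per the labels' protocols. The sources used here do not name the counting tool, and the depth of these libraries is unknown.

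Overlaps were counted as a share of the shorter peak, with 95% Wilson intervals that cover counting error only. A peak was assigned to the gene whose span in the RefSeq table of TAIR10.1 alone held its summit; that table was used for names and assignment, and 32548 of 34262 deposited gene IDs matched it. Strand came from the 35S and tmk4 lists. RNA changes were tested with limma 3.58.1 (limma-trend, R 4.3.3) on log2(RPKM + 1) in 1 model of all 12 libraries, over the 18072 genes averaging 1 RPKM or more, with Benjamini-Hochberg adjustment. The fit was tested on simulated data. Python 3.11.15, NumPy 2.4.6, pandas 2.3.3, SciPy 1.17.1 and matplotlib 3.10.9 were used for the rest. The labels do not say that replicates were separate cultures, so p-values measure only how these samples spread, which may be technical.

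The peaks, lists and tests were chosen with earlier results of these data known. The peaks and genes named were the 10 constant peaks with the highest lowest fold, the 3 widest, the 5 on either side of the overlap limit, the 5 genes with the most constant peaks, the 5 most abundant, those on the m6A, auxin, light harvesting, clock, meristem and heat shock lists, and, among called genes, the 8 largest changes each way with NAA in wild type, the 5 each way between genotypes and the 5 each way in the difference of effects. Translation factors were added as the word list with the highest share, after their values were seen. Motifs at the summits were not analysed here. The alternatives tried were other overlap rules and peak thresholds, another pseudocount, filter, scaling and gene assignment, a replicate block, and leaving out each list or library.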

Additional observations from a re-analysis of the deposited data

Results flagged for a closer look

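The effect of NAA differed between the genotypes in 10 named genes with a constant peak, by the contrast of the 2 effects (effect in fip37 LEC1:FIP37 minus effect in wild type, on the log2 scale, limma adjusted p). In 5 genes the fall seen in wild type was smaller or missing in fip37 LEC1:FIP37. These were CXE5 (difference 1.32, adjusted p = 0.0475), the GATA17-LIKE gene AT4G16141 (1.31, 0.00756), ULT1, a regulator of shoot meristems (0.85, 0.0373), AT5G60670 (0.83, 0.0481) and AT5G01020 (0.75, 0.0426). ULT1 was at 10.6, 12.9 and 11.95 RPKM in wild-type mock and 6.60, 6.52 and 6.35 in NAA. In fip37 LEC1:FIP37 it was at 6.94, 5.13 and 5.32 in mock and 5.98, 6.47 and 5.996 in NAA, below each wild-type mock library in all 6.

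In the other 5 the rise seen in wild type was not seen in fip37 LEC1:FIP37. These were AT1G30700 (difference -2.50, limma adjusted p = 0.0417), NUDT4 (-1.99, 0.004), AT4G13180 (-1.94, 0.0212), UGT85A1, a glycosyltransferase (-1.85, 0.0383) and AT1G70420 (-1.65, 0.0462). UGT85A1 was at 105, 109 and 108 RPKM in wild-type mock and 181, 242 and 269 in NAA, against 44.4, 94.2 and 38.2 in fip37 LEC1:FIP37 mock and 25.6, 35.5 and 34.5 in NAA. AT1G30700 was at 172 RPKM in fip37 LEC1:FIP37 mock replicate 2 and at 59.5 and 65.0 in the others. AT4G16141 and NUDT4 were called under every alternative, and the other 8 genes lost the call when 1 of several libraries was left out. With the replicate number as a block CXE5, ULT1, AT5G60670 and AT5G01020 were not called (adjusted p = 0.064, 0.0618, 0.0697 and 0.0651).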

How the results depend on the processing

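The number of constant peaks, 2567, was 2053 to 3340 under other overlap rules, with summits within 100 bases, when started from mock replicate 2 and without any 1 list. It was 1107 with peaks of -log10 q of at least 5 in each list, and 546 with peaks of at least 2-fold. The overlap with the other lists stayed at 380 to 496 peaks for 35S:FIP37, 273 to 401 for 35S:FIP373A and 241 to 337 for tmk4. Genes with a constant peak called for NAA in wild type, 139, numbered 241 with quantile normalization and 32 to 502 when 1 library was left out. The 3 called in fip37 LEC1:FIP37 became 5 with median-ratio scaling and 5 with quantile normalization, and 1 to 8 without 1 library. The 24 called for the difference of effects became 12 with no filter, 54 with quantile normalization, and 4 to 255 without 1 library. The largest of each of these ranges came without wild-type NAA replicate 3, with which 1509 of all tested genes were called for NAA in wild type, against 4119 without it. The 937 called between genotypes ranged from 673 to 1180. Quantile normalization gave 299 higher and 673 lower between genotypes, and 33 higher and 21 lower in the difference of effects, where median-ratio scaling gave 8 and 18. Median-ratio scaling moved the median of all genes from -0.06 to 0.00 for NAA in wild type. The cause of these changes was not tested. Of the values of single genes under alternatives, 1174 kept their side of the threshold, 8 gained the call and 150 lost it. Direction was not always kept. Without wild-type NAA replicate 3, HSP17.6II and HSP17.6A went from 0.47 and 0.10 to -1.03 and -1.375 for NAA in wild type.

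With the replicate number as a block, 112, 3, 898 and 23 genes with a constant peak were called for NAA in wild type, NAA in fip37 LEC1:FIP37, genotype and the difference of effects, the last as 1 higher and 22 lower. Deviations of libraries with the same number correlated at -0.103 to 0.397 over 18 pairs, and those with different numbers at -0.348 to 0.333. The ranges overlap, so they cannot decide whether samples with the same number were paired. Not every library correlated best with its own number.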
